A study of Mus musculus with 12 samples.

Results

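The genes described here encode 10 enzymes that modify collagen, namely the 5 lysyl oxidases *Lox*, *Loxl1*, *Loxl2*, *Loxl3* and *Loxl4*, the 3 lysyl hydroxylases *Plod1*, *Plod2* and *Plod3*, and the 2 prolyl 4-hydroxylase alpha subunits *P4ha1* and *P4ha2*. They were taken by symbol from a table of 39179 genes, and all 10 were found. The table holds 12 RNA libraries of mouse pancreatic stellate cells (PSCs), the fibroblast-like cells of the pancreas that lay down its scar matrix. PSCs of the strain C57BL/6, labelled with mCherry, were kept for 72 h alone (mono-PSCs), with a pancreatic cancer cell (PCC) line labelled with EGFP (2W-PSCs), or with that line and a macrophage (MØ) line labelled with TagBFP (3W-PSCs). The PSCs were a clone of immortalised stellate cells, the PCCs were an iKras mouse line and the MØs were RAW264.7 cells. All cultures were in medium with little serum and had the same total number of cells per flask, and the PSCs were sorted on mCherry before RNA was extracted. Each culture gave 4 libraries, described as biological replicates. The purpose of the cultures was to learn how neighbouring tumour cells and MØs alter the expression state of fibroblasts.

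Collagen chains are modified in 2 places. Inside the cell, prolyl 4-hydroxylases hydroxylate proline, which lets the triple helix hold at body temperature, and lysyl hydroxylases hydroxylate lysine, which sets the chemistry of later cross-links. Outside the cell, the copper-dependent lysyl oxidases oxidise lysine and hydroxylysine on assembled fibrils, and the resulting aldehydes join neighbouring molecules. Stromal fibroblasts are a main source of these enzymes in pancreatic tumours, where cross-linked collagen stiffens the tissue.

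Libraries held 4561817 to 8093368 counts, made from 3′ ends of polyadenylated RNA, so a level in CPM, the count scaled to library depth, stands for a number of transcripts and needs no division by length. All 10 genes passed the filter on low counts in each comparison, and their lowest count in any library was 32, for *Loxl3* in 2W-PSC replicate 2. The 10 fibroblast and stellate cell markers all had counts in each culture, with summed levels of 4667 to 9101 CPM for mono-PSCs, 8225 to 8434 CPM for 2W-PSCs and 4985 to 6165 CPM for 3W-PSCs, although *Des*, which marks quiescent stellate cells, stayed at 3.32 CPM or less and *Lum* at 1.37 CPM or less. Summed levels of 12 macrophage markers were 10.2 to 13.4, 12.4 to 17.5 and 30.9 to 68.6 CPM in mono-, 2W- and 3W-PSCs, with *Emr1* at 0 in each library and *Ptprc* at 0 outside 3W-PSCs. Of these markers *Cd14* was the most abundant in 3W-PSCs, at 20.2 to 25.1 CPM against 13.2 CPM or less elsewhere, and *Laptm5* reached 9.74 CPM there against 0 elsewhere. Summed levels of 10 epithelial markers were 0.484 to 2.46, 75 to 148 and 51.8 to 91.2 CPM in the same order, with *Epcam* at 0.38 CPM or less and *Cldn4* at 0 throughout. Others had counts in all co-cultured libraries, such as *Krt18* (30.7 to 53.1 CPM for 2W-PSCs) and *Cdh1* (10.3 to 34.4 CPM for 2W-PSCs). In bulk RNA, fewer cells of a type and less RNA per cell cannot be told apart. 2W-PSC replicate 2, the library with the fewest counts, held the highest *Lox*, *Loxl4* and *Plod1* levels of all 12 libraries and the lowest *Loxl3*, *P4ha1* and *P4ha2* levels. Values without it are therefore given beside the log2 fold changes described for single enzymes that it moved by over 1.5 times. For other genes and for lists they are given only in part.

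*Lox* was the most abundant of the 10 transcripts in each library, and *Loxl1* and *P4ha1* came next. Averaged over the 12 libraries, *Lox* stood at 506 CPM, *Loxl1* at 158 CPM and *P4ha1* at 153 CPM. These 2 neighbours did not differ beyond their spread between libraries. *Plod3*, *Loxl2*, *Plod2* and *P4ha2* lay between 47.7 and 83.4 CPM, and *Plod1*, *Loxl3* and *Loxl4* between 27.4 and 34.3 CPM. Cultures changed this order at its lower end, where *Loxl3* was the least abundant gene in mono-PSCs at 14.5 CPM but stood above *Plod1* and *Loxl4* in 3W-PSCs.

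**Figure D1:**
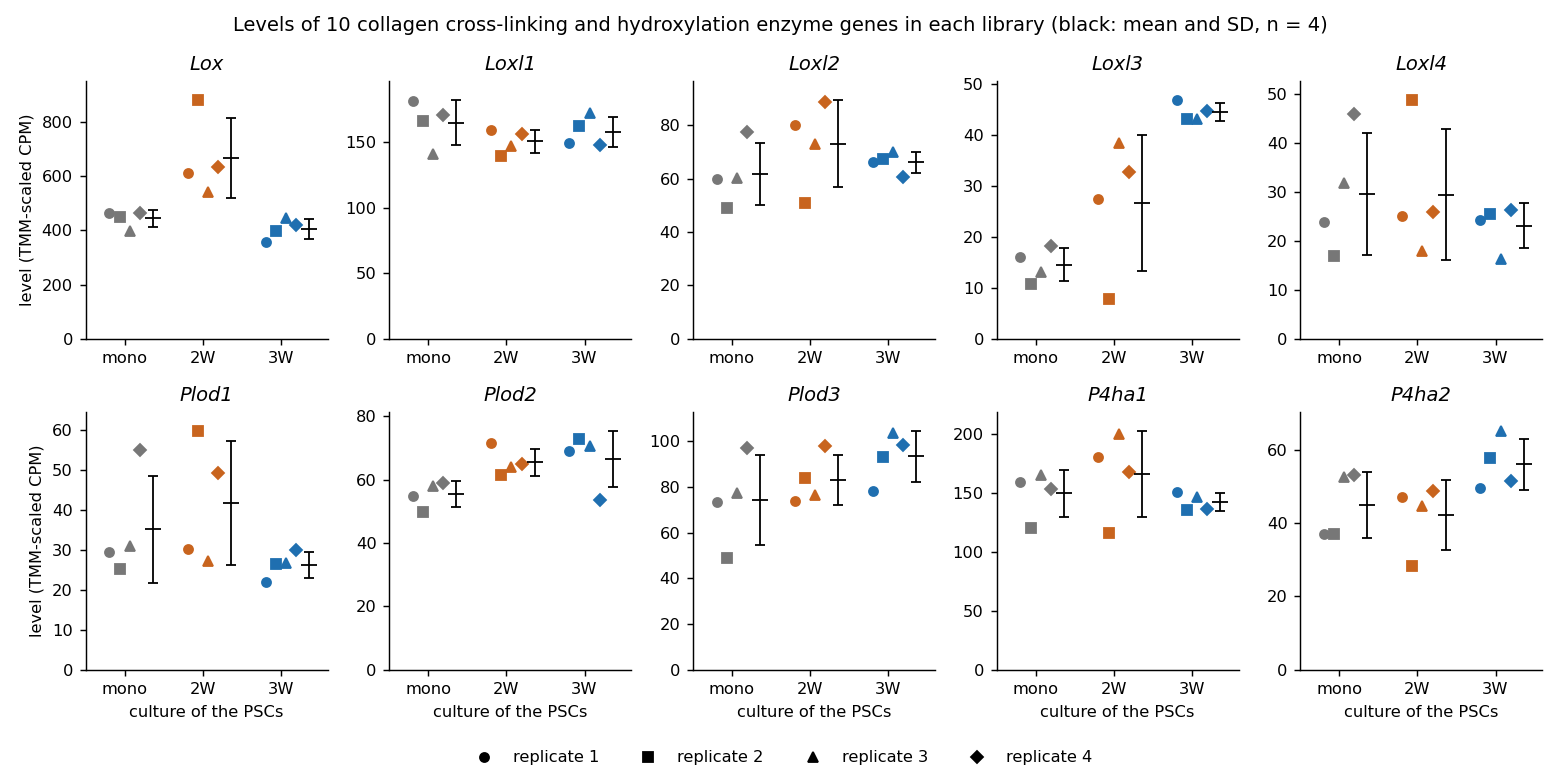
Level of each gene in CPM with TMM scaling (vertical axes, from 0) in every library of mono-, 2W- and 3W-PSCs, with marker shapes for the replicate number and black bars for the mean and SD of 4 libraries. The 4 *Lox* levels of 2W-PSCs lie above all others, and the 4 *Loxl3* levels of 3W-PSCs lie above all others and close together.

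Cultures were compared in pairs, and few of the differences in the 10 genes passed. A gene was called at a Benjamini-Hochberg adjusted p under 0.05, over all genes tested, in edgeR's quasi-likelihood test. In 3W- against 2W-PSCs 1 of 10 was called (*Lox*, lower), a share near the 10.7% of all 11513 genes tested that were called. At an unadjusted p under 0.05 there were 2 (*Lox* and *Plod1*), beside 26.3% of all genes. *Lox*, *Loxl3* and *P4ha2* did not overlap between these cultures, beside 21.3% of all genes. The median log2 fold change was -0.06 over the 10 genes (0.0022 without 2W-PSC replicate 2) and 0.0025 over all genes, with 5 of the 10 above 0.

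In 2W- against mono-PSCs, 0 of 10 were called by edgeR and 0 by DESeq2, where 0.991% of 11199 genes were called by edgeR. At an unadjusted p under 0.05 there were 2 (*Lox* and *Loxl3*, both higher), beside 7.40% of all genes. Without overlap were *Lox* and *Plod2*, beside 5.73% of all genes, and 7 of 10 log2 fold changes lay above 0, with a median of 0.21 against 0.02 over all genes. Without 2W-PSC replicate 2 *Loxl3* was called, beside 233 of 11481 genes. With the replicate number as a block, 0 of the 10 were called in edgeR, beside 135 of 11199 genes, and their median was 0.22.

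In 3W- against mono-PSCs, 1 of 10 was called (*Loxl3*, higher), beside 26.4% of 11551 genes. At an unadjusted p under 0.05 there was also 1, beside 38.2% of all genes. *Loxl3* was the only one of the 10 without overlap between these cultures, beside 25.9% of all genes. The median log2 fold change was 0.0093, against 0.012 over all genes. *Loxl3* in this comparison was the only one of the 30 differences with an absolute log2 fold change above 1. The 95% interval lay within -1 and 1 for 9, 8 and 7 of the 10 genes in 3W against mono, 2W against mono and 3W against 2W. So larger than 2-fold changes were outside the interval for most of the enzymes, while smaller ones were not. Two-sided exact permutation tests on the CPM of 4 against 4 libraries gave their smallest possible p, 0.0286, in 6 of the 30 differences, namely those without overlap. Adjusted over the 30 permutation tests this p was 0.143, so none passed. Absence of overlap by itself gives the smallest p here, so these tests add nothing to it.

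**Figure D2:**
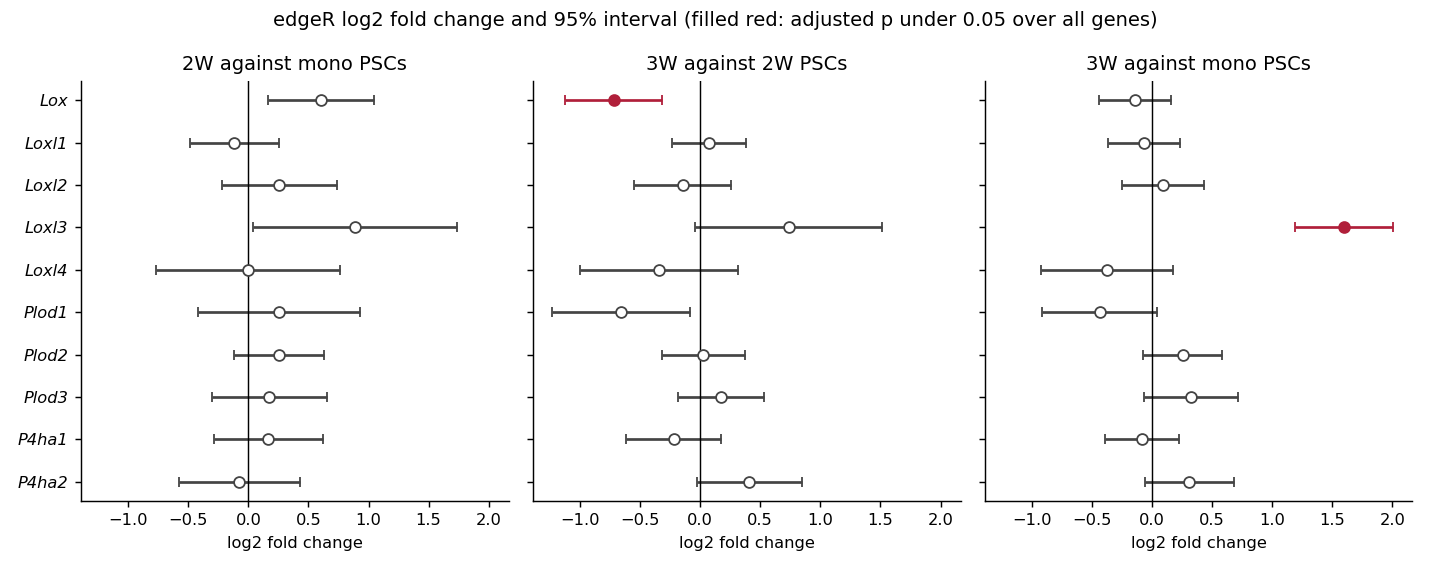
edgeR log2 fold change (horizontal axis) of each of the 10 genes with its 95% interval in the 3 comparisons, 4 libraries per culture, filled red where the adjusted p over all genes is under 0.05. *Lox* in 3W against 2W (-0.72) and *Loxl3* in 3W against mono (1.60) are the 2 red points.

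*Lox*, the founding lysyl oxidase and the main cross-linking enzyme of fibrillar collagens and elastin, was highest in 2W-PSCs. Its levels were 465, 451, 399 and 465 CPM in the 4 mono-PSC libraries, 614, 881, 541 and 635 CPM for 2W-PSCs, and 356, 396, 445 and 421 CPM for 3W-PSCs. All 4 libraries of 2W-PSCs exceeded all 8 others, whereas mono- and 3W-PSCs overlapped. Means were 445 ± 31.1, 668 ± 148 and 405 ± 37.8 CPM (SD, n = 4 each).

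In 3W-PSCs *Lox* was lower than in 2W-PSCs by 1.65-fold (log2 fold change -0.72, SE 0.185, 95% interval -1.13 to -0.31, edgeR adjusted p = 0.0319). The call depended on single libraries. It was lost without 2W-PSC replicate 4 (adjusted p = 0.0730 in edgeR) and without any 1 of the 3W-PSC replicates (edgeR adjusted p of 0.0579 to 0.110), while the log2 fold change stayed between -0.82 and -0.56 in all settings tried. Without 2W-PSC replicate 2, the library with the highest *Lox*, it was -0.56 with an adjusted p of 0.011 in edgeR. Epithelial marker sums also spanned higher values in 2W- than in 3W-PSCs, overlapping between 75 and 91.2 CPM, and their part in the *Lox* difference was not tested.

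Between 2W- and mono-PSCs the *Lox* difference, 0.60 on the log2 scale (SE 0.204, 95% interval 0.16 to 1.04), did not pass (edgeR unadjusted p = 0.0117, adjusted p = 0.344). Nor did the difference between 3W- and mono-PSCs, at -0.14 (95% interval -0.45 to 0.16, edgeR adjusted p = 0.486). *Lox* (ENSMUSG00000024529) lies on the minus strand at chr18:52516067-52529867 of GRCm38.

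Among genes with a mean log2 CPM above 3, the 3 whose log2 CPM followed *Lox* most closely over the 12 libraries were *Anxa6*, a calcium-dependent membrane-binding protein (Pearson r = 0.945), *Cygb*, a globin known as a marker of stellate cells (r = 0.941), and *Stard10*, a lipid transfer protein (r = 0.916). These are descriptions over libraries that share cultures, depth and 2W-PSC replicate 2. Without that library the correlations were 0.888, 0.897 and 0.877 over 11 libraries. *Cygb* averaged 51.2 CPM for mono-PSCs, 271 CPM for 2W-PSCs and 37.1 CPM for 3W-PSCs.

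*Loxl3*, a lysyl oxidase-like enzyme with scavenger receptor domains, rose in 3W- against mono-PSCs. Its levels were 16.0, 10.8, 13.1 and 18.1 CPM for mono-PSCs, 27.5, 7.85, 38.4 and 32.6 CPM for 2W-PSCs, and 46.8, 43.1, 43.1 and 44.7 CPM for 3W-PSCs. The 4 libraries of 3W-PSCs lay above all 8 others, with an SD of 3.85% of their mean, while 3 libraries of 2W-PSCs lay between the mono- and 3W-PSCs and replicate 2 lay below all mono-PSCs. Means were 14.5 ± 3.23, 26.6 ± 13.3 and 44.4 ± 1.71 CPM (SD, n = 4 each).

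Against mono-PSCs the *Loxl3* level of 3W-PSCs was 3.03-fold higher (log2 fold change 1.60, SE 0.193, 95% interval 1.19 to 2.01, edgeR adjusted p = 9.36e-06). The call held under 15 of 15 other ways to run the test, with log2 fold changes of 1.48 to 1.73. The step from mono- to 2W-PSCs was 0.89 (SE 0.391, 95% interval 0.04 to 1.74) and did not pass over all 8 libraries (edgeR adjusted p = 0.634). Without 2W-PSC replicate 2 it was 1.17 and passed (edgeR adjusted p = 0.0166). The step from 2W- to 3W-PSCs was 0.74 (SE 0.353, 95% interval -0.04 to 1.51, edgeR adjusted p = 0.214), and it was 0.44 without that library (edgeR adjusted p = 0.0799). The macrophage marker sum, like *Loxl3*, was higher in all 3W-PSC libraries than in all others, and its part in the *Loxl3* difference was not tested. Within 3W-PSCs replicate 4 held the highest macrophage marker sum, 68.6 CPM, and a *Loxl3* level within the range of the other 3. This describes a single library and is not a test. The marker sum is also no clean measure of MØ RNA, since it was 10.2 to 13.4 CPM in mono-PSCs, kept without MØs.

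*Loxl3* (ENSMUSG00000000693) lies on the plus strand at chr6:83034173-83052562, and 535 of its exonic bases are also exonic in *Htra2*, a mitochondrial protease gene on the opposite strand. Of these, 70 lie in the last 500 bases of *Loxl3*, where 3′ libraries gather their reads. Whether reads were counted by strand was not given in the sources used here, and without strand, reads from the shared stretch cannot be told apart. *Htra2*, named here after its values were seen, averaged 22.5 ± 7.71 CPM for mono-PSCs, 28.9 ± 19.1 CPM for 2W-PSCs and 58.4 ± 6.27 CPM for 3W-PSCs (SD, n = 4 each), and its lowest level, 5.15 CPM, was in 2W-PSC replicate 2, where *Loxl3* was lowest too. It was higher in 3W- than in mono-PSCs by 1.37 on the log2 scale (edgeR adjusted p = 0.000152), as *Loxl3* was. Between 3W- and 2W-PSCs its difference, 1.0 on the log2 scale, did not pass (edgeR adjusted p = 0.186). The part of *Htra2* reads in the *Loxl3* counts was not tested.

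The other 3 lysyl oxidase genes did not pass in any comparison. *Loxl1* (chr9:58287738-58313186, minus strand), best known for elastic fibre upkeep, was the steadiest, at 165 ± 17.2, 150.5 ± 8.96 and 158 ± 11.5 CPM in mono-, 2W- and 3W-PSCs (SD, n = 4 each). For this gene the log2 fold changes were -0.12, 0.07 (0.04 without 2W-PSC replicate 2) and -0.07 for 2W against mono, 3W against 2W and 3W against mono, and none of their 95% intervals reached beyond -0.49 or 0.38. *Loxl2* (chr14:69609068-69695834, plus strand), which acts on collagen IV as well as fibrils, ranged from 49.2 to 77.7 CPM for mono-PSCs, from 50.8 to 88.9 CPM for 2W-PSCs and from 60.8 to 69.9 CPM for 3W-PSCs. Its difference of 3W- from 2W-PSCs, -0.15 on the log2 scale, was -0.28 without 2W-PSC replicate 2 (edgeR adjusted p of 0.664 and 0.174). Of the 75-base windows at *Loxl2* 3′ ends, 5.63% also occur in other genes, so a small part of its count is uncertain. *Loxl4* (chr19:42593982-42612813, minus strand) varied widely between libraries of 1 culture, from 16.8 to 46.0 CPM for mono-PSCs and from 18 to 48.8 CPM for 2W-PSCs, and its interval for 2W against mono, -0.77 to 0.76 on the log2 scale, holds changes of either direction. Without 2W-PSC replicate 2 that difference moved from -0.0024 to -0.37 and the one of 3W- from 2W-PSCs from -0.34 to 0.0081.

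The make-up of the lysyl oxidase transcripts differed between the cultures through *Lox* and *Loxl3*. *Lox* made up 62.2 ± 2.12% of their summed CPM for mono-PSCs, 69.9 ± 5.51% among 2W-PSCs and 58.0 ± 2.18% among 3W-PSCs (SD, n = 4 each). Its share ran from 66.2% to 78.1% among 2W-PSCs and from 55.4% to 60.1% among 3W-PSCs, without overlap. *Loxl3* made up 2.02 ± 0.332%, 2.97 ± 1.67% and 6.41 ± 0.627% in the same order. For each *Loxl3* transcript end there were 25.6 to 41.8 of *Lox* in mono-PSCs, 14.1 to 112 among 2W-PSCs and 7.63 to 10.3 among 3W-PSCs, so that the ratio was lowest in the 4 libraries of 3W-PSCs. *Loxl1* took its smallest shares in 2W-PSCs, with 12.4% to 18% against 21.1% to 24.3% in the other 8 libraries. Its own levels overlapped between the cultures, and a share falls where another gene of the sum, here *Lox*, is higher. These shares are descriptions and were not tested.

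**Figure D3:**
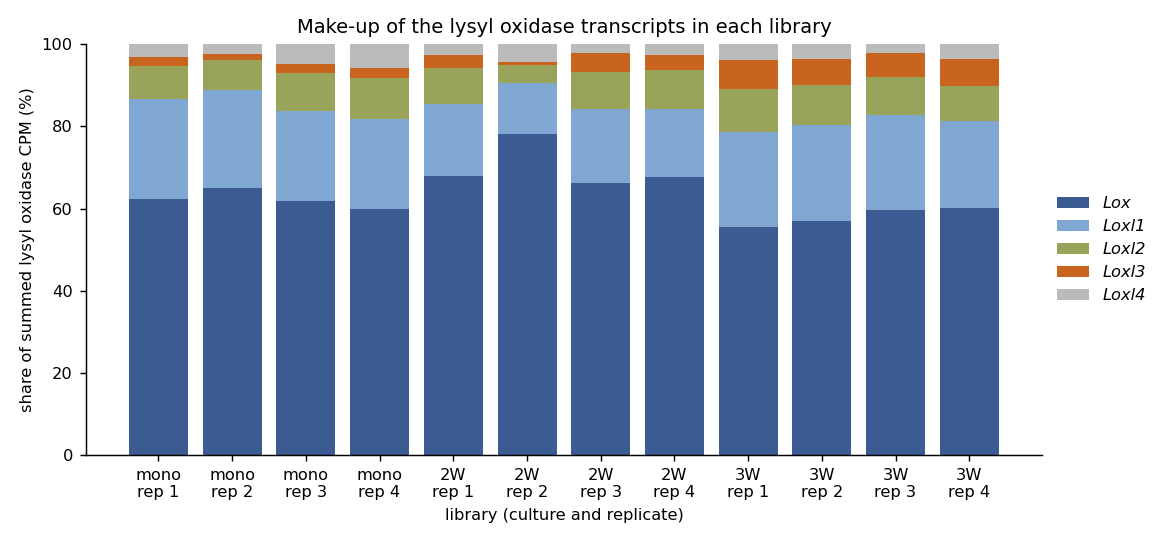
Share of each of the 5 genes in the summed lysyl oxidase CPM (vertical axis, percent) in each of the 12 libraries, stacked to 100. The *Lox* segment is tallest in 2W-PSCs, reaching 78.1% in replicate 2, and the *Loxl3* segment is thickest in 3W-PSCs, at 5.78% to 7.27%.

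None of the 3 lysyl hydroxylases passed in any comparison. *Plod1* (chr4:147909753-147936767, minus strand), which acts on lysines of the triple helix, stood at 29.5, 25.1, 30.9 and 54.9 CPM for mono-PSCs, at 30.3, 59.6, 27.2 and 49.3 CPM for 2W-PSCs, and at 21.9, 26.5, 26.6 and 29.9 CPM for 3W-PSCs. Libraries of 1 culture differed more than the cultures did, and the 2W- and 3W-PSCs overlapped. The difference of 3W- from 2W-PSCs, -0.66 on the log2 scale (SE 0.261, 95% interval -1.23 to -0.09), had an edgeR unadjusted p of 0.0278 and an adjusted p of 0.135. It was -0.44 without 2W-PSC replicate 2 (edgeR adjusted p = 0.171), and leaving it out took the difference of 2W- from mono-PSCs from 0.25 to 0.01.

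*Plod2* (chr9:92542223-92608428, plus strand), which hydroxylates the telopeptide lysines and thereby favours the stable cross-links of fibrotic tissue, stood at 54.9, 49.7, 57.9 and 59.0 CPM for mono-PSCs, at 71.5, 61.6, 63.8 and 65.0 CPM for 2W-PSCs, and at 68.9, 72.8, 70.8 and 53.5 CPM for 3W-PSCs. The 2W-PSC libraries lay above the mono-PSC libraries without overlap, by 0.26 on the log2 scale (95% interval -0.12 to 0.63), which did not pass (edgeR adjusted p = 0.920). Between 3W- and 2W-PSCs the difference was 0.02 with a 95% interval of -0.32 to 0.37, and its sign changed with the setting, to -0.0038 without 2W-PSC replicate 2. *Plod3* (chr5:136987019-136996648, plus strand), which also adds the sugars of hydroxylysine, averaged 74.1 ± 19.6, 82.9 ± 10.8 and 93.2 ± 11 CPM in mono-, 2W- and 3W-PSCs (SD, n = 4 each), and these ranges overlapped. *Plod3* shares 529 exonic bases with *Znhit1* on the opposite strand, none of them in its last 500 bases.

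Among lysyl hydroxylase transcripts, *Plod1* took 14.1 ± 1.60% among 3W-PSCs against 21.5 ± 5.93% among 2W-PSCs and 20.9 ± 3.52% in mono-PSCs (SD, n = 4 each), and the 2W- and 3W-PSCs overlapped by 1 library each. *Plod3* took 50.1 ± 3.47% among 3W-PSCs, the largest share of the 3. These shares were not tested.

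Prolyl 4-hydroxylase is a tetramer of alpha subunits, which carry the catalytic site, and beta subunits, which are protein disulphide isomerase encoded by *P4hb*. Low oxygen is known to raise the alpha subunit genes through hypoxia-inducible factors, whose binding element often contains the letters ACGTG. Other forms of that element were not searched for, so a window without ACGTG may still hold one. To show where these letters stand in the genes of the 2 alpha subunits and of their shared beta subunit, the 250 bases before the RefSeq start are given 5′ to 3′ on the gene's own strand of GRCm38.p6, with ACGTG or its reverse complement CACGT in capitals. They are chr10:59323046-59323295 (plus strand) for *P4ha1*, chr11:54100674-54100923 (plus strand) for *P4ha2* and chr11:120573254-120573503 (minus strand) for *P4hb*. The *P4ha2* window lies inside the gene as GENCODE draws it, since that annotation starts the gene further upstream.
P4ha1: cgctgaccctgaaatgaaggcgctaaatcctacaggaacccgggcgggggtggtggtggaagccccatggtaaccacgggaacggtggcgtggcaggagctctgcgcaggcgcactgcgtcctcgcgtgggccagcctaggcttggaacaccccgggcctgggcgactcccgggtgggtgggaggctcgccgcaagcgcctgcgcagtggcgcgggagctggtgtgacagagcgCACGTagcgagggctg
P4ha2: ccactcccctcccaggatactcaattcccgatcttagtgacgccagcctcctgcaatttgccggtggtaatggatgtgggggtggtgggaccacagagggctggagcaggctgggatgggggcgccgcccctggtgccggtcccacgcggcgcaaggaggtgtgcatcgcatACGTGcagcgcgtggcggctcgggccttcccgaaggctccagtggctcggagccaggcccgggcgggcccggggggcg
P4hb: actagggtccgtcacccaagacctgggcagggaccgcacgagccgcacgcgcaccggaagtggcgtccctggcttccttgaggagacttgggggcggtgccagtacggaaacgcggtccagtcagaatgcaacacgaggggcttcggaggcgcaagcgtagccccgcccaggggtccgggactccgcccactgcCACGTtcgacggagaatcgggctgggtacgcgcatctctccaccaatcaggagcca
The letters begin 16, 78 and 56 bases before the start in *P4ha1*, *P4ha2* and *P4hb*. Of the 10 enzymes, 5 had such a window in the table used, and *Plod3* was the other one with a match, against none for *Loxl4* and *Plod1*. Over 32851 windows of this length, 16.6% held the letters on either strand. TGANTCA (6.75% of windows) and TTCCNGGAA (0.913%), searched on both strands as letters bound by AP-1 and STAT factors, were in none of the 5. A match is a description of letters and not evidence of binding.

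*P4ha1* (chr10:59323296-59373304) stood at 159, 120, 165 and 154 CPM for mono-PSCs, at 181, 116, 200.3 and 167 CPM for 2W-PSCs, and at 151, 136, 146 and 136 CPM for 3W-PSCs. The cultures overlapped, and no difference passed (edgeR adjusted p of 0.476 to 0.999). Without 2W-PSC replicate 2, the library with the lowest *P4ha1*, the difference of 3W- from 2W-PSCs moved from -0.22 to -0.36 (edgeR adjusted p = 0.0744) and that of 2W- from mono-PSCs from 0.16 to 0.29, and neither passed. *P4ha2* (chr11:54100095-54131665), the second catalytic subunit, stood at 37.0, 37.0, 52.5 and 53.0 CPM for mono-PSCs, at 47.0, 28.2, 44.7 and 48.8 CPM for 2W-PSCs, and at 49.7, 57.8, 65.0 and 51.6 CPM for 3W-PSCs. All 4 libraries of 3W-PSCs lay above all 4 of 2W-PSCs, by 0.41 on the log2 scale (SE 0.20, 95% interval -0.03 to 0.85), without passing (edgeR adjusted p = 0.222). This was 0.26 without 2W-PSC replicate 2 (edgeR adjusted p = 0.264), and leaving it out turned the difference of 2W- from mono-PSCs from -0.08 to 0.06. *P4ha2* made up 20.3 ± 1.82% of the *P4ha1* and *P4ha2* transcripts in 2W-PSCs and 28.2 ± 2.69% among 3W-PSCs (SD, n = 4 each), again without overlap. In mono-PSCs its share was 23.0 ± 2.92%.

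Of the remaining genes of the enzyme, *P4hb* averaged 372 ± 67.3, 406 ± 140 and 305 ± 24.5 CPM in mono-, 2W- and 3W-PSCs (SD, n = 4 each) and passed in no comparison. *P4ha3*, a further and less abundant alpha subunit, stood at 8.35 ± 3.06, 17.2 ± 5.93 and 18.3 ± 3.43 CPM. It rose in 3W- against mono-PSCs by 1.12 on the log2 scale (SE 0.269, edgeR adjusted p = 0.00502). For 2W against mono its difference, 1.06, did not pass (edgeR adjusted p = 0.304). *P4ha3* holds no ACGTG in its 250 bases.

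For comparison with the alpha subunits, a list of 16 genes known to rise in low oxygen was counted. In 3W- against 2W-PSCs, 5 of 15 tested rose and 0 fell in edgeR, beside 5.73% of all genes called higher, with a median log2 fold change of 0.53. Without single libraries 2 to 7 rose, the 2 without 2W-PSC replicate 4, 3W-PSC replicate 1 or 3W-PSC replicate 2 and 7 without 2W-PSC replicate 2. Over all genes these settings called 666, 550, 497 and 2107 in either direction, against 1230 with all libraries. *P4ha1* differed by -0.22 (95% interval -0.62 to 0.17) and *P4ha2* by 0.41 (95% interval -0.03 to 0.85) in that comparison, and neither passed. In 2W- against mono-PSCs 0 of 14 rose and 1 fell in edgeR, beside 0.152% of all genes called lower, with 0 higher and 4 lower at an unadjusted p under 0.05. In 3W- against mono-PSCs 8 of 15 rose and 2 fell, beside 13.4% of all genes called higher and 13% called lower. Without single libraries 4 to 9 rose, the 4 without mono-PSC replicate 2, 3W-PSC replicate 1 or 3W-PSC replicate 2. Calls over all genes ran from 2228 to 4266 in the same way, the 4266 without mono-PSC replicate 1, where the 9 rose. Oxygen was not measured in the files, and 3W against 2W shares its libraries with the other comparisons.

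Several fibrillar collagen genes, which encode the substrates of these enzymes, fell in 3W- against 2W-PSCs. Of 12 genes for fibrillar collagen chains and elastin, 8 were tested, and in 3W- against 2W-PSCs 4 fell and 0 rose in edgeR, beside 4.95% of all genes called lower. *Col1a1*, the main chain of type I collagen, fell by 0.84 on the log2 scale (adjusted p = 0.0157 in edgeR), *Col3a1* by 1.74 (0.000538), *Col5a1* by 0.74 (0.00780) and *Col11a1* by 2.43 (0.000794). Without single libraries 3 to 5 fell, the 3 without 3W-PSC replicate 1 or 3W-PSC replicate 2 and the 5 without 2W-PSC replicate 2. These settings called 550, 497 and 2107 of all genes in either direction, against 1230 with all libraries. In 2W- against mono-PSCs 0 of 8 were called by edgeR, with 4 at an unadjusted p under 0.05, all higher in 2W-PSCs, beside 7.40% of all genes at that p in either direction. In 3W- against mono-PSCs 2 of 8 fell (*Col3a1* and *Col11a1*) and 0 rose, beside 13% of all genes called lower and 13.4% called higher. Elastin, the other substrate of *Lox* and *Loxl1*, had 0 counts in all 12 libraries, which allows a level of up to 0.0377 CPM over their pooled counts.

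Set against their substrates, the lysyl hydroxylase and prolyl 4-hydroxylase transcripts had higher ratios in 3W- than in 2W-PSCs. The collagen sums were lower in 3W-PSCs, while the sums of these enzymes did not rise. Fibrillar collagen genes summed to 5403 ± 1853, 7296 ± 320 and 4562 ± 519 CPM in mono-, 2W- and 3W-PSCs (SD, n = 4 each). Per 1000 CPM of these, there were 24.2 to 28.2 CPM of lysyl hydroxylases in 2W-PSCs and 36.6 to 44.8 CPM for 3W-PSCs. There were 18.9 to 35.5 CPM of *P4ha1* and *P4ha2* in 2W-PSCs and 37.8 to 50.6 CPM for 3W-PSCs, so neither ratio overlapped between these cultures. Any transcript that did not fall with the collagens would show a higher ratio, and the share of such genes was not counted.

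The lysyl oxidase ratio was 118 to 149 CPM per 1000 in 2W-PSCs and 141 to 162 CPM per 1000 in 3W-PSCs. This overlap came from 2W-PSC replicate 2 alone, since the other 3 libraries of 2W-PSCs, at 118 to 126 CPM per 1000, lay below all 4 of 3W-PSCs. *Lox* and the collagens were both lower in 3W-PSCs. Lysyl hydroxylases summed to 165 ± 35.8, 190 ± 21.9 and 186 ± 13.9 CPM and alpha subunits to 194 ± 26.2, 208 ± 44.5 and 198 ± 10.2 CPM in mono-, 2W- and 3W-PSCs (SD, n = 4 each). In mono-PSCs the collagen sum ran from 3350 to 7474 CPM, so the ratios there spread over most of the range of the co-cultures. Sums and ratios over these genes are descriptions without a test. With only *Col1a1*, *Col1a2* and *Col3a1* below the line, ratios of lysyl hydroxylases averaged 29.4 and 47.7 CPM per 1000 in 2W- and 3W-PSCs and those of alpha subunits 32.6 and 51.0 CPM per 1000.

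**Figure D4:**
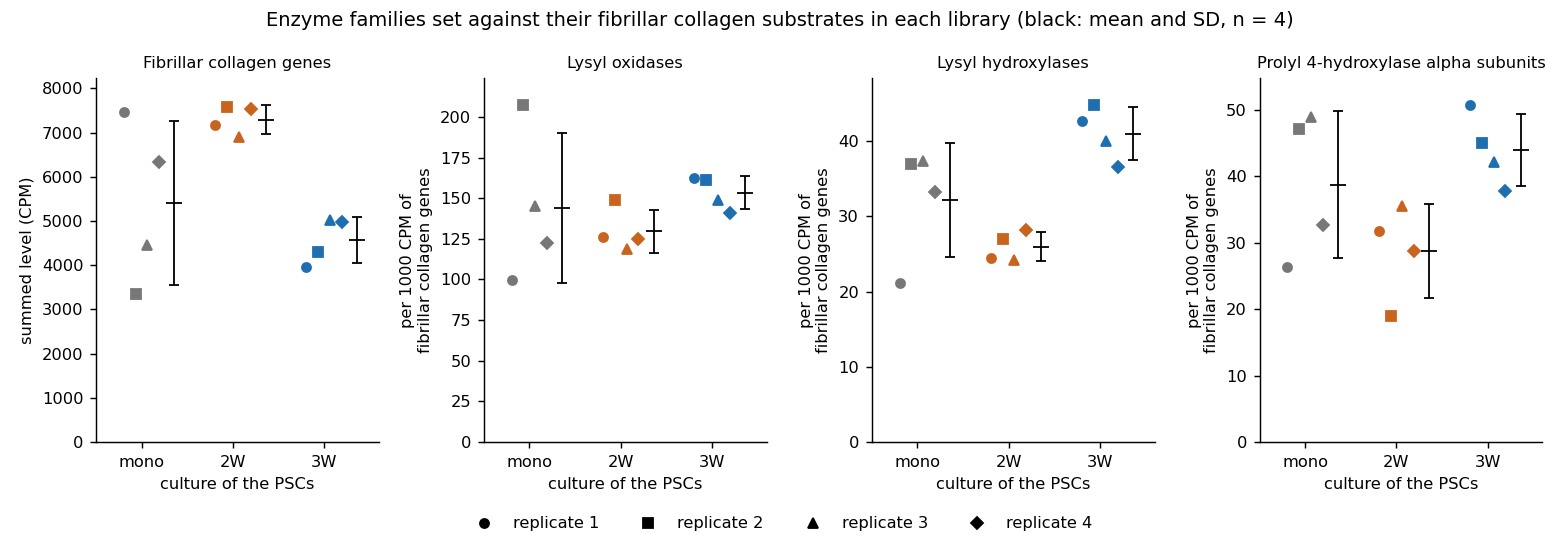
Summed CPM of the fibrillar collagen genes and, per 1000 CPM of these, summed CPM of lysyl oxidases, lysyl hydroxylases and prolyl 4-hydroxylase alpha subunits (vertical axes, from 0) in every library, with black bars for the mean and SD of 4 libraries. 2W- and 3W-PSCs lie apart for the collagens, lysyl hydroxylases and alpha subunits, and overlap for the lysyl oxidases through 2W-PSC replicate 2 (149), with the other 3 libraries of 2W-PSCs at 118 to 126.

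The wider machinery of collagen folding, processing and cross-linking was followed in a list of 27 further genes. In 3W- against 2W-PSCs 22 were tested, 0 rose and 1 fell, beside 5.73% of all genes called higher and 4.95% called lower, with a median log2 fold change of -0.20. Of the 22, 3 did not overlap between these cultures, beside 21.3% of all genes. *Leprel1*, described below, was 1 of the 3 and was not called (-1.84, edgeR adjusted p = 0.0886). *Fmod*, also described below, was not tested here, as it did not pass the filter on low counts. Its means were 5.32 CPM for 2W-PSCs and 0.065 CPM for 3W-PSCs. The called gene was *Pcolce*, an enhancer of the protease that trims procollagen (-0.99, SE 0.274, edgeR adjusted p = 0.0413). Its levels were 639 to 1557 CPM for 2W-PSCs and 392 to 552 CPM for 3W-PSCs, the highest being in 2W-PSC replicate 2. Without that library its mean in 2W-PSCs moved from 961 to 762 CPM. Without 2W-PSC replicate 4 there were 0 calls in the list, and without 2W-PSC replicate 2 there were 5, all lower in 3W-PSCs. Over all genes there were 666 and 2107 calls in these settings, against 1230 with all libraries.

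In 2W- against mono-PSCs 23 of these genes were tested and 0 were called by edgeR, beside 0.991% of all genes, and 1 was called by DESeq2. At an unadjusted p under 0.05 there were 5, all higher in 2W-PSCs, beside 7.40% of all genes in either direction. Of the 23 log2 fold changes 19 lay above 0, with a median of 0.28, where 52.7% of all genes lay above 0. In 3W- against mono-PSCs 2 of 23 rose and 3 fell, beside 13.4% of all genes called higher and 13% called lower. Those that rose were *P4ha3* and *Tgm2*, the tissue transglutaminase, which forms cross-links independently of lysyl oxidases (0.80, SE 0.197, edgeR adjusted p = 0.00591). *Tgm2* averaged 22.8 ± 5.72 CPM for mono-PSCs, 43.4 ± 8.24 CPM for 2W-PSCs and 40.1 ± 4.73 CPM for 3W-PSCs (SD, n = 4 each), and the mono-PSCs did not overlap with either co-culture. For 2W against mono its difference of 0.94 did not pass (edgeR adjusted p = 0.112).

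Those that fell against mono-PSCs were *Pcolce* (-0.86, SE 0.179, edgeR adjusted p = 0.00173), *Leprel1*, a prolyl 3-hydroxylase gene (-2.29, SE 0.553, edgeR adjusted p = 0.00523), and *Fmod*. *Fmod* encodes fibromodulin, a small proteoglycan that binds collagen fibrils and steers lysyl oxidase. It had 40 to 60 counts in each mono-PSC library and 6 to 51 in each 2W-PSC library, but 0 in 3 of the 3W-PSC libraries and 2 in replicate 4 (edgeR adjusted p = 9.51e-07 for 3W against mono). *Leprel1* had 24 to 71 counts in mono-PSCs and 3, 6, 8 and 33 in 3W-PSCs. Replicate 4 of 3W-PSCs was thus the highest of its culture for both genes.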

How the data were processed

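RNA of sorted PSCs was measured in 12 libraries, 4 for each of 3 cultures. The authors made QuantSeq 3′ FWD libraries, trimmed single-end reads, aligned them with STAR to GRCm38 and assigned them to Ensembl genes with featureCounts. The deposited values are raw counts per gene, in whole numbers, although the methods speak of normalised ones. Columns were tied to samples through the number each name carries, and 0 had to be dropped. No use of molecular identifiers was given, so PCR copies are counted too and statements on depth (4561817 to 8093368 counts per library) cover counting error only. Of 39179 genes, 20802 had no count.

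Cultures were compared in pairs with edgeR 4.0.16 under R 4.3.3 (TMM scaling, filterByExpr, glmQLFit and glmQLFTest on the 8 libraries compared, no block), with Benjamini-Hochberg adjustment over all genes tested and a threshold of 0.05. CPM used the TMM factors of all libraries. Single values were compared with two-sided exact permutation tests in SciPy 1.17.1. The fits were first tested on simulated counts. All 10 enzymes are named. Of the 27 further genes, *P4hb*, *P4ha3* and the up to 3 called genes that rose or fell most were named. The members and lists were chosen with earlier results of these data known. Positions and exon overlaps are from GENCODE M21 on GRCm38, and promoter windows are from RefSeq on GRCm38.p6.

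Alternatives were DESeq2's size factors, no filter, a minimum of 10 counts per gene and library, a joint fit of the 12 libraries, a block for replicate number, leaving out each library, DESeq2 1.42.0, a prior count of 2, CPM by total counts and a shorter list of collagens. Deviations from the culture means correlated between same-numbered libraries of 2W- and mono-PSCs (r = 0.369, 0.294, 0.236 and 0.107 for replicates 1 to 4), so these numbers were taken to pair them in the block. The estimates, intervals and p printed for single genes in 2W against mono are from the fit without the block. The labels do not say what a number stands for.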

Additional observations from a re-analysis of the deposited data

How the results depend on the processing

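Of the 30 log2 fold changes, 25 kept their sign in all settings. The *Loxl3* call of 3W against mono was the only one of the 30 called throughout (15 of 15 settings, highest edgeR or DESeq2 adjusted p = 0.00302). The *Lox* call of 3W against 2W held in 9 of 15 settings and in 3 of the 8 that left out a library. With the replicate number as a block, 0 of the 10 enzymes were called in 3W against 2W (*Lox* adjusted p = 0.0726 in edgeR), where same-numbered libraries did not pair (r of -0.048 to 0.157, and 0.0072 to 0.128 for 3W against mono). The block, which pairs 2W- and mono-PSCs, changed no other call of the 10, and moved the count over all genes from 1230 to 752 in 3W against 2W, from 111 to 135 in 2W against mono and from 3054 to 3092 in 3W against mono. With the block, 3 collagen genes fell and 2 hypoxia genes rose in 3W against 2W. The cause was not tested.

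Leaving out single libraries called 0 to 1 of the 10 enzymes in 3W against 2W and 0 to 1 in 2W against mono. Of the 27 further genes, 1 was called in 3W against 2W, 2 with no filter, 3 with all 12 libraries in one fit, 0 with the block, 4 with DESeq2 and 0 to 5 without single libraries. In 2W against mono, 0 were called, 1 with all 12 libraries and 1 with DESeq2. In 3W against mono, 5 were called, 9 with no filter, 8 with the block and 5 to 9 without single libraries. Over all genes, calls in 3W against 2W were 1788 with DESeq2 and 497 to 2107 without single libraries, the latter without 2W-PSC replicate 2. In 2W against mono they were 57 with at least 10 counts in every library, 177 with no filter, 262 with all 12 libraries, 277 with DESeq2 and 61 to 233 without single libraries. In 3W against mono they were 2063 with all 12 libraries and 2228 to 4266 without single libraries.

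Some uncalled differences changed sign with the setting. Those were near 0 with all libraries, except that of *Loxl4* in 3W against 2W, at -0.34. Without single libraries these ran from -0.52 to 0.0081 for *Loxl4* and from -0.021 to 0.12 for *Plod2* in 3W against 2W, from -0.37 to 0.28 for *Loxl4* and from -0.18 to 0.061 for *P4ha2* in 2W against mono, and from -0.0072 to 0.22 for *Loxl2* in 3W against mono. *Plod2* in 3W against 2W was -2.1e-05 with DESeq2's size factors, and *Loxl4* in 2W against mono was 0.0016 with a prior count of 2. CPM by total counts moved 0 of 30 levels by more than 1 SD, and the shorter list of collagens moved 7 of 12 ratios by that much. That list only takes genes from below the line, so it must raise each ratio. With it, the lysyl hydroxylase and alpha subunit ratios still did not overlap between 2W- and 3W-PSCs. At these depths and with 4 libraries per culture, a gene that was not called is not shown to be unchanged.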

Other observations

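Over the 12 libraries, some pairs of the 10 enzymes varied together in log2 CPM. The highest Pearson correlation was between *Loxl4* and *Plod1* (r = 0.788, and 0.680 over 11 libraries without 2W-PSC replicate 2). *Loxl3* and *P4ha2* (0.736 and 0.578) and *Loxl2* and *P4ha1* (0.721 and 0.632) came next. The lowest was between *Lox* and *P4ha2* (-0.63 and -0.25). Some correlations turned on 1 library. *Lox* and *Loxl2* correlated at 0.038 with 2W-PSC replicate 2 and at 0.626 without it, and *Lox* and *Loxl4* at 0.378 with it and at -0.08 without it. These libraries share cultures and scaling, so the values are descriptions without a test.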
